A study of Salmo salar with 9 samples.

Results

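Cytotoxic T cells and natural killer (NK) cells kill infected cells by releasing granules that hold Perforin-1, which opens pores in the target membrane, and granzymes, serine proteases that enter through them. NK-lysin is a membrane-damaging peptide of the same granules, and Fas antigen ligand is a surface protein that starts death in cells carrying the Fas receptor. In mammals the T-box transcription factors T-bet (TBX21) and Eomesodermin switch on these effector genes. The head kidney is a blood-forming and lymphoid organ of fish that also holds the steroid-producing interrenal cells.

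The contigs described here are those whose best database match names T-bet or TBX21, Eomesodermin, Perforin-1, a Granzyme, NK-lysin or Fas antigen ligand and that held at least 10 counts over all fish. A contig is a stretch of cDNA assembled from the reads, so several contigs can be pieces of 1 transcript, and contigs of 1 name are not replicates of each other. Of the 87600 contigs assembled de novo, 39 met the rule: 4 of T-bet, 14 of Eomesodermin, 13 of Perforin-1 and 8 of Granzyme. None of the contigs analysed here carried the name NK-lysin or Fas antigen ligand. Of the 48223 salmon cDNA sequences in the NCBI reference, 14 carried 1 of the names and 4 held at least 10 counts. All names are those of best matches, often in mouse, rat, human, frog or rainbow trout.

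Atlantic salmon *Salmo salar* received 1 of 3 feeds for 42 days. FMC was based on fishmeal and had no seaweed, SW1 contained the brown seaweed *Laminaria digitata* at 10%, and SW2 contained Oceanfeed, a commercial mixture of seaweeds, at the same 10%. RNA of the head kidney of 3 fish per diet was sequenced, 1 fish from each tank. All 9 fish, the FMC fish included, were injected with 6 mg per kg of *Escherichia coli* lipopolysaccharide (LPS) and sampled 68 to 70 hours later, so that every comparison is between diets after LPS. Fish are numbered within their diet as in the labels.

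Total counts ranged from 8259299 to 12228633 per fish on the de novo reference and from 2158027 to 3203677 on the NCBI reference. On the first principal component of log2 CPM, FMC fish 2 lay at 131.6 and SW1 fish 1 at 112.4, away from the remaining 7, which lay between -62.5 and -4.823. CPM are counts scaled to 1000000 per library. The 12 contigs of red blood cell markers summed to 30395.6 CPM in FMC fish 2 and 7458.78 CPM in SW1 fish 1, against 2048.84 to 4129.13 CPM in the others. The 12 B cell marker contigs were lowest in those 2 fish, at 4956.77 and 4159.49 CPM against 6937.82 to 12927.2 CPM. Contig 80 took 16.5% of the counts of SW2 fish 1 and 0.395 to 1.44% of those of the other fish. Interrenal markers were read in every fish, at 443.763 to 3340.42 CPM over 12 contigs. In whole tissue, fewer cells of a type and less RNA per cell cannot be told apart.

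One T-bet contig, 20247, whose best match is rainbow trout T-bet, carried the largest log2 fold change of SW2 vs. FMC of the 38 contigs tested. Its counts were 17, 19 and 19 in FMC fish 1 to 3. In SW1 fish 1 to 3 they were 335, 15 and 123. In SW2 fish 1 to 3 they were 196, 198 and 112. All SW2 fish were thus above all FMC fish, as in 5.69% of all contigs tested. SW1 fish 2 lay among the FMC fish once scaled to library size. As CPM with TMM scaling, which corrects for differences in library composition, the level was 1.91 ± 0.435 in FMC, 11.9 ± 10.5 in SW1 and 17.6 ± 5.49 in SW2 (mean ± SD, n = 3 each).

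For contig 20247 the log2 fold change of SW2 vs. FMC was 3.21 (SE 0.333), with the smallest unadjusted p of the 87309 contigs tested, 9.32e-07, and an adjusted p of 0.0814 in edgeR's quasi-likelihood test. The adjusted p was thus above the threshold of 0.05 in edgeR, as in limma voom (0.217), but below it in DESeq2 (2.04e-11). Leaving out 1 fish moved the edgeR adjusted p below the threshold without FMC fish 2 (0.00611) and SW2 fish 3 (0.0187), and raised it without FMC fish 1 (0.155), FMC fish 3 (0.254), SW2 fish 1 (0.501) and SW2 fish 2 (0.155). It was 0.196 with the edgeR default filter on low counts and 0.492 with all 9 fish in the fit. For SW1 vs. FMC the log2 fold change was 2.64 (SE 0.657), with an unadjusted p of 0.00169 and adjusted p of 1.00 in edgeR and 0.0493 in DESeq2. The mean of both seaweed diets differed from FMC by 2.94 on the log2 scale (SE 0.583), with adjusted p of 0.905 in edgeR and 0.000178 in DESeq2. SW2 and SW1 differed by 0.54 (SE 0.544, unadjusted p = 0.34 in edgeR). These comparisons share the FMC fish and are not independent of each other.

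In none of the other 3 T-bet contigs were all SW2 fish above all FMC fish. SW1 fish 1 was the highest fish in contigs 38258 and 51500, as in contig 20247, and the lowest in contig 38257. Whether the 4 contigs are separate genes, alleles of 1 gene or pieces of 1 transcript was not tested. Contig 38257, matching salmon Tbx21, held 46, 22 and 34 counts in FMC, 17, 38 and 49 in SW1, and 14, 18 and 19 in SW2. All SW2 fish were below all FMC fish, as in 6.03% of all contigs tested, and the SW1 fish spanned both. Its level was 3.39 ± 0.736 CPM in FMC and 1.76 ± 0.265 CPM in SW2 (SD, n = 3), and the log2 fold change of SW2 vs. FMC was -0.95 (SE 0.317, unadjusted p = 0.0121, adjusted p = 0.816 in edgeR).

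Contig 38258, matching rainbow trout tbx21, held 41, 68 and 56 counts in FMC, 200, 25 and 42 in SW1, and 66, 80 and 45 in SW2. SW1 fish 1 was the highest and the other fish overlapped between diets. Contig 51500, the least abundant, had 71 counts over all fish, and its diets overlapped as well. On the NCBI reference, 1 of 3 T-bet sequences was read, the salmon Tbx21 that contig 38257 also matched best. It had 60, 80 and 41 counts in FMC, 218, 50 and 56 in SW1, and 63, 88 and 54 in SW2, and a log2 fold change of 0.25 (SE 0.338, unadjusted p = 0.478 in edgeR) for SW2 vs. FMC. The 2 other T-bet sequences of that reference were listed at 0 in all fish. The Tbx21 sequence that was read held 710 counts in all, against 623 in contig 38258 and 257 in contig 38257. In SW1 fish 1, its highest fish, it held 218 counts, against 200 in contig 38258 and 17 in contig 38257. Which contigs share reads with it was not tested, so its log2 fold change is no check on contig 38257 or 20247.

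**Figure D1:**
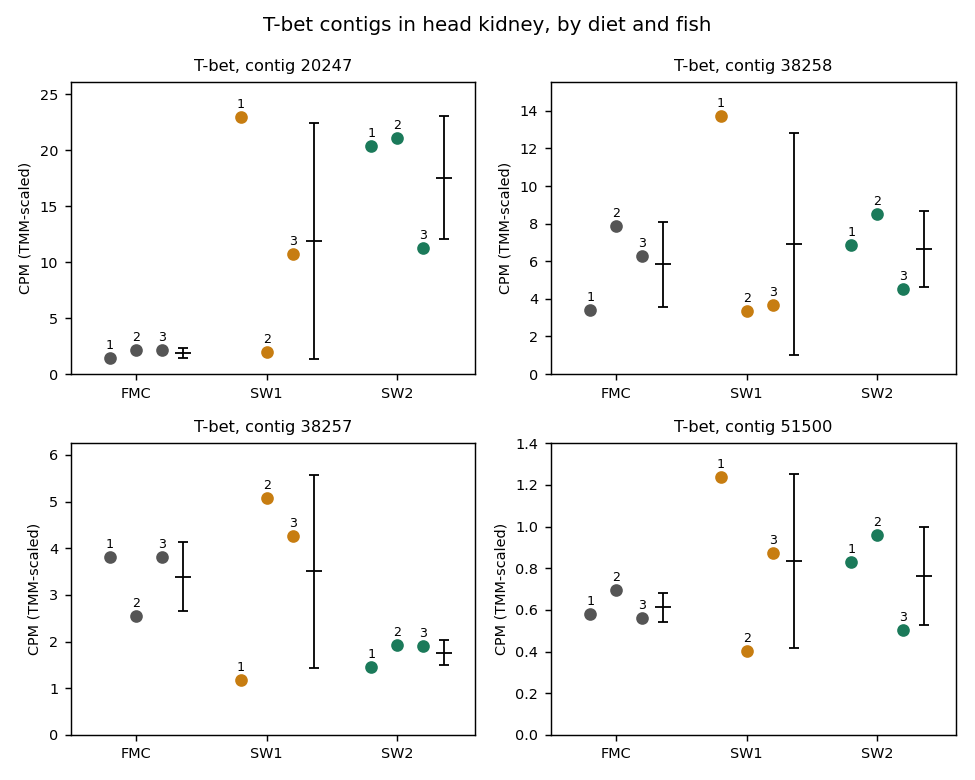
Level of the 4 T-bet contigs in each fish, in TMM-scaled CPM; points are fish with their number, and the bar beside them is the mean ± SD of 3 fish. In contig 20247 the 3 SW2 fish and SW1 fish 1 and 3 lie above all FMC fish and SW1 fish 2 does not, while in contig 38257 the SW2 fish lie below the FMC fish.

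Eomesodermin, the T-box factor related to T-bet, was spread over 14 contigs of 33 to 791 counts. In contig 33890, the most abundant, there were 55, 77 and 59 counts in FMC, 183, 65 and 120 in SW1, and 59, 73 and 100 in SW2. After scaling, its level was 6.70 ± 2.17 CPM in FMC, 10.6 ± 1.94 in SW1 and 7.98 ± 1.96 in SW2 (SD, n = 3). SW1 fish 1 and 3 were above all FMC fish and SW1 fish 2 was just below FMC fish 2. The log2 fold change was 0.66 (SE 0.340, unadjusted p = 0.077 in edgeR) for SW1 and 0.26 (SE 0.304, unadjusted p = 0.407) for SW2.

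In 2 of the 14 Eomesodermin contigs all SW1 fish were above all FMC fish, as they were in 2.92% of all contigs tested. Contig 52375 was at 1.33, 1.39 and 1.35 CPM in FMC and at 2.68, 2.27 and 2.87 CPM in SW1 (log2 fold change 0.94, SE 0.362, unadjusted p = 0.0235, adjusted p = 1.00 in edgeR). Contig 66304 was at 2.66, 4.39 and 3.03 CPM in FMC and at 7.76, 4.55 and 5.58 CPM in SW1 (log2 fold change 0.83, SE 0.354, unadjusted p = 0.0372, adjusted p = 1.00). Neither differed between SW2 and FMC beyond the spread of the fish, with unadjusted p of 0.712 and 0.294 in edgeR. Over the family, 11 of 14 contigs had a log2 fold change above 0 in SW1 (median 0.62) and 10 of 14 in SW2 (median 0.22). Both medians moved when single fish were left out. Without SW1 fish 1, the SW1 median was 0.035, with 7 of the 13 contigs tested above 0. Without SW2 fish 2, the SW2 median was -0.018, with 6 of 14 above 0, and without FMC fish 2 it was 0.49. SW1 fish 1 was the highest of the 9 fish in 8 of the 14, and how often it was so over all contigs was not counted. The other Eomesodermin contigs (43765, 39325, 62211, 60357, 44179, 39324, 62210, 69341, 33889, 84913 and 66303) overlapped between each seaweed diet and FMC. Both Eomesodermin sequences of the NCBI reference were listed at 0 in all fish, although reads of 14 de novo contigs carried that name.

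Perforin-1 was the most abundant family by counts, with 13 contigs of 52 to 4038 counts. Contig 1553 held 268, 265 and 240 counts in FMC, 1130, 260 and 715 in SW1, and 310, 427 and 423 in SW2. After scaling, FMC was at 22.3 to 30.6 CPM, SW1 at 34.8 to 77.6 CPM and SW2 at 32.2 to 45.5 CPM, so that all 6 seaweed fish were above all FMC fish. That held in 1 of the 39 contigs and in 0.758% of all contigs tested. The log2 fold change was 1.12 (SE 0.357, unadjusted p = 0.00861, adjusted p = 1.00 in edgeR) for SW1 vs. FMC and 0.59 (SE 0.233, unadjusted p = 0.0273, adjusted p = 0.822) for SW2 vs. FMC.

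Contig 15544, also matching Perforin-1, was at 6.48, 13.1 and 9.20 CPM in FMC, 33.8, 14.7 and 26.8 CPM in SW1 and 10.8, 17.4 and 20.4 CPM in SW2. All SW1 fish were above all FMC fish, as in 2.92% of all contigs tested, and SW2 fish 1 fell between FMC fish. The log2 fold change was 1.39 (SE 0.391, unadjusted p = 0.00404, adjusted p = 1.00 in edgeR) for SW1 and 0.76 (SE 0.317, unadjusted p = 0.0348, adjusted p = 0.822) for SW2. In contig 75295, all SW2 fish (1.87, 1.71 and 3.71 CPM) were above all FMC fish (0.831, 1.16 and 1.68 CPM), as in 5.69% of all contigs tested. Its log2 fold change was 1.01 (SE 0.427, unadjusted p = 0.0373, adjusted p = 0.823 in edgeR). SW1 overlapped with FMC there.

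The second most abundant Perforin-1 contig, 7963, showed no such order. It was at 20.6, 46.2 and 28.7 CPM in FMC, 60.1, 53.2 and 29.2 CPM in SW1 and 36.7, 44.1 and 31.9 CPM in SW2, and the diets overlapped. In contig 36498 SW1 fish 1 was the highest, at 28.7 CPM, with the other fish at 8.10 to 21.6 CPM. The remaining contigs (36287, 39156, 37881, 39155, 62673, 50274, 7962 and 70955) overlapped between each seaweed diet and FMC. All 13 Perforin-1 contigs had a log2 fold change above 0 in SW1 vs. FMC (0.034 to 1.39, median 0.47) and 11 of 13 in SW2 vs. FMC (median 0.27). Leaving out 1 fish gave 10 to 13 contigs above 0 and medians of 0.36 to 0.60 for SW1. For SW2 it gave medians from 0.15 without SW2 fish 2, with 8 of 13 above 0, to 0.56 without SW2 fish 1. Both Perforin-1 sequences of the NCBI reference were read, with 3444 and 1838 counts, and neither passed an unadjusted p of 0.05 in any comparison. Their log2 fold changes for SW1 vs. FMC were 0.53 (SE 0.394) and 0.64 (SE 0.349). Fish by fish, the counts of the first lay close to those of contig 7963, with 857 and 876 in SW1 fish 1. Those of the second were highest in SW1 fish 1 (513) and lowest in SW2 fish 1 (93), as in contig 36498 (418 and 78). Whether either sequence took up reads of contigs 1553 or 15544 was not tested, so they are no check on those contigs.

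**Figure D2:**
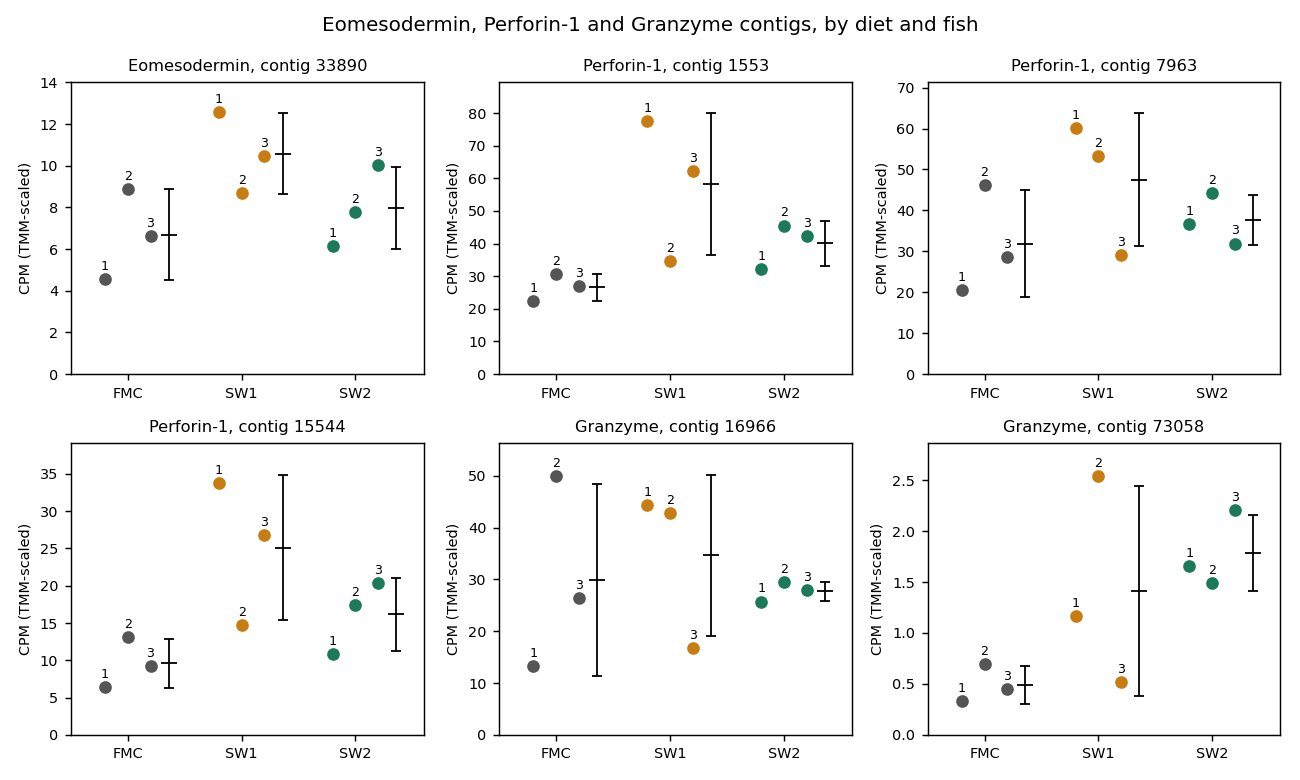
Level of 6 contigs of Eomesodermin, Perforin-1 and Granzyme in each fish, in TMM-scaled CPM; points are fish with their number, and the bar is the mean ± SD of 3 fish. In Perforin-1 contig 1553 all 6 seaweed fish lie above the FMC fish, while in Granzyme contig 16966 the diets overlap and FMC fish 2 is the highest.

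The granzymes were read mostly through contig 16966, which matches human Granzyme K and held 2788 counts. It was at 13.2, 49.9 and 26.5 CPM in FMC, 44.3, 42.9 and 16.7 CPM in SW1 and 25.7, 29.4 and 27.9 CPM in SW2. FMC fish 2 was the highest and FMC fish 1 the lowest, so the FMC fish alone spanned the other diets. The log2 fold change was 0.20 (SE 0.490) for SW1 and -0.11 (SE 0.382) for SW2, with unadjusted p of 0.686 and 0.787 in edgeR.

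Contig 73058, matching rat Granzyme-like protein 1, held fewer counts. It held 4, 6 and 4 counts in FMC, 17, 19 and 6 in SW1, and 16, 14 and 22 in SW2. All SW2 fish were above all FMC fish, as in 5.69% of all contigs tested, whereas SW1 fish 3 was within the FMC range. The log2 fold change was 1.87 (SE 0.442, unadjusted p = 0.00134, adjusted p = 0.816 in edgeR) for SW2 vs. FMC and 1.46 (SE 0.636, unadjusted p = 0.041, adjusted p = 1.00) for SW1 vs. FMC. Contig 86741, matching cattle Granzyme A, had 0, 1 and 0 counts in FMC, 4, 6 and 3 in SW1, and 1, 2 and 1 in SW2, so few that no fold change is given. It reached the minimum of 10 counts for SW1 vs. FMC only through the SW1 fish, so that it had to differ to be tested, and it did not reach that minimum in SW2 vs. FMC. Counts of contigs are therefore also given without it.

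The other granzyme contigs of the 6 most abundant were 72054, matching rat Granzyme-like protein 2, 64011, matching mouse Granzyme F, and 82628 and 86740, both matching salmon Granzyme A. They held 34 to 80 counts in all and overlapped between each seaweed diet and FMC. Of the 5 Granzyme sequences of the NCBI reference, 3 were listed at 0, and the only 1 to reach 10 counts was a Granzyme A. Both NK-lysin sequences there were listed at 0 in every fish. Because sequences for T-bet and Eomesodermin were also at 0 while contigs of those names were read, a 0 in that reference does not show that the transcript was lacking.

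No sequence analysed here was named Fas antigen ligand, but 2 contigs, 77288 and 77289, matched tumor necrosis factor ligand superfamily member 6, another name of that protein. They are outside the rule and were chosen after their values were seen. They held 106 and 48 counts in all and overlapped between diets in every comparison.

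Over all 39 contigs, 34 had a log2 fold change above 0 in SW1 vs. FMC, with a median of 0.50, while 48.3% of all contigs tested were above 0 and their median was -0.015. Without SW1 fish 1, 28 of 38 were above 0, with a median of 0.37, and 7 contigs changed sign. The median was 0.71 without FMC fish 2. At an unadjusted p under 0.05 in edgeR, 7 of the 39 were higher in SW1 and 0 were lower, where 1.03% of all contigs were higher and 0.649% lower. All SW1 fish were above all FMC fish in 5 contigs and below them in 0, against 2.92% and 2.62% of all contigs. Without Granzyme contig 86741 these counts were 33 of 38 above 0, 6 higher at an unadjusted p under 0.05 and 4 apart. After adjustment over all contigs 0 of the 39 passed in edgeR and 0 in limma voom, and 0.00343% of all contigs did in edgeR. DESeq2 called 1, T-bet contig 20247, and 0.0417% of the 67090 contigs to which it gave an adjusted p. Some of the 39, such as Eomesodermin contig 33889, got none there and could not be called. The count of 7 became 3 without FMC fish 1, 11 without FMC fish 2 and 4 without FMC fish 3. The share of all contigs passing in those fits is not given, so these counts are not read as a result about the 39 contigs. Markers of other cells were compared in the same way. Of the red blood cell markers, 10 of 12 contigs were below 0 (median -0.76), and of the B cell markers 9 of 12 were (median -0.32), with 0 past an unadjusted p of 0.05 in edgeR in either list. The red blood cell markers summed to 2285.95, 30395.6 and 4119 CPM in FMC fish 1 to 3, against 2048.84 to 7458.78 CPM in SW1. The B cell markers summed to 9315.71, 4956.77 and 7946.9 CPM in FMC fish 1 to 3. In SW1 fish 1 to 3 they summed to 4159.49, 12927.2 and 6937.82 CPM, on both sides of the FMC fish. Of the interrenal markers, 9 of 12 were above 0 (median 0.49) and 2 were higher at that p, and they summed to 443.763 to 1983.03 CPM in FMC and 1048.97 to 1970.0 CPM in SW1. Above 0 were also 16 of 24 macrophage markers (median 0.11), 11 of 17 neutrophil markers (median 0.096) and 5 of 11 thrombocyte markers (median -0.029). Of these, 1 thrombocyte contig was higher at that p and 0 were lower. The part of these markers in the values of the 39 contigs was not tested.

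In SW2 vs. FMC, 28 of the 38 contigs tested were above 0, with a median of 0.25, against 50.3% of all contigs and a median of 0.0030. Without SW2 fish 2, 19 of 38 were above 0, with a median of 0.0049, and 11 contigs changed sign, while without FMC fish 2 the median was 0.48. At an unadjusted p under 0.05 in edgeR, 5 were higher and 1, T-bet contig 38257, was lower, where 2.39% of all contigs were higher and 3.63% lower. The diets did not overlap in 4 contigs higher and 2 lower in SW2, against 5.69% and 6.03% of all contigs. The second lower contig was 82629, matching mouse Granzyme B, with 3, 3 and 3 counts in FMC and 2, 0 and 1 in SW2. At the level of its SW2 fish it would not have reached the minimum of 10 counts, and without it 1 contig was lower with no overlap. After adjustment 0 of the 38 passed in edgeR and 0 in limma voom, as did 0% of all contigs in edgeR. DESeq2 called T-bet contig 20247 alone of the 38, and 0.065% of the 58494 contigs to which it gave an adjusted p. Some of the 38, such as Eomesodermin contig 33889, got none there and could not be called. The count of 6 became 3 without FMC fish 1 and 3 without SW2 fish 3. The share of all contigs passing in those fits is not given, so these counts are not read as a result about the 38 contigs. Markers of other cells were compared here too. The interrenal markers had a median of 1.19, with 6 of 12 contigs higher at an unadjusted p under 0.05 in edgeR and 0 lower, and summed to 1524.63 to 3340.42 CPM in SW2 against 443.763 to 1983.03 CPM in FMC. Of the macrophage markers, 5 of 24 were higher at that p and 0 lower (median 0.067), and all SW2 fish, at 2389.24 to 2940.17 CPM in sum, were above all FMC fish, at 1712.37 to 2287.11 CPM. Of the red blood cell markers, 11 of 12 were below 0 (median -0.61) and 3 were lower at that p. They summed to 2285.95, 30395.6 and 4119 CPM in FMC fish 1 to 3 and to 2450.89 to 3700.46 CPM in SW2, so only FMC fish 2 stood far above SW2. Of 11 thrombocyte markers 3 were higher and 1 lower at that p (median 0.024). Of the B cell markers 9 of 12 were below 0 (median -0.19), with 0 higher and 1 lower. Their sums did not go the same way, at 9188.62 to 9929.17 CPM in SW2. In FMC fish 1 to 3 the sums were 9315.71, 4956.77 and 7946.9 CPM. Of 17 neutrophil markers 10 were above 0 (median 0.10), with 0 higher and 1 lower. The part of these markers in the values of the 38 contigs was not tested.

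**Figure D3:**
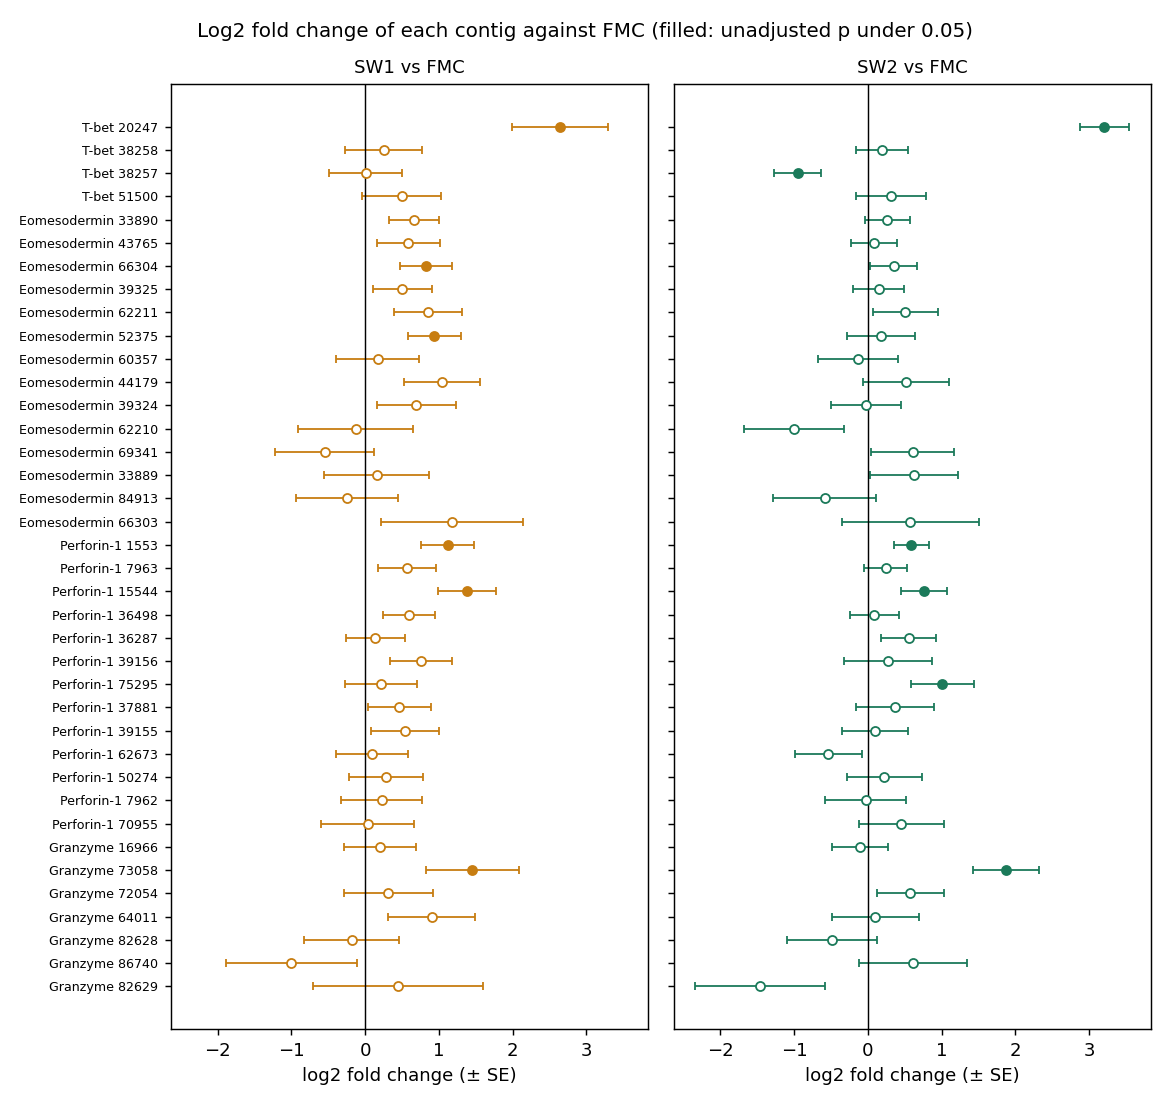
Log2 fold change of each contig against FMC in SW1 (left) and SW2 (right), with its SE, ordered by family and by total count; filled points have an unadjusted p under 0.05 in edgeR. Granzyme contig 86741, with 1 count in the FMC fish, is left out; T-bet contig 20247 has the largest value drawn in both panels, 2.64 and 3.21.

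For the mean of both seaweed diets against FMC, 32 of 39 contigs were above 0, with a median of 0.35. Of all contigs 47.9% were above 0, with a median of -0.016. The median of the 39 was 0.22 without SW1 fish 1, with 27 of 39 above 0, and 0.59 without FMC fish 2. In edgeR 5 were higher at an unadjusted p under 0.05 (T-bet 20247, Perforin-1 1553 and 15544, Granzyme 73058 and 86741) and 0 were lower, against 1.39% and 1.98% of all contigs. After adjustment 0 passed in edgeR and 0 in limma voom, as did 0% of all contigs in edgeR, and DESeq2 called T-bet contig 20247 and 0.024% of all contigs. The count of 5 became 10 without FMC fish 2. The share of all contigs passing in that fit is not given, so the 10 is not read as a result about the 39 contigs. Granzyme contigs 86741 and 82629 would not have reached 10 counts at the level of their lowest diet, and without them 31 of 37 contigs were above 0 and 4 were higher at an unadjusted p under 0.05.

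The direct comparison of SW2 with SW1 had 30 of 39 contigs below 0, with a median of -0.37. Of all contigs 49.5% were above 0, with a median of -0.0059. Of the 39, 0 passed an unadjusted p of 0.05 in edgeR, where 2.05% of all contigs were higher and 3.74% lower. After adjustment 0 passed in edgeR, limma voom and DESeq2, against 0.00114% of all contigs in edgeR and 0.0388% in DESeq2. At an unadjusted p under 0.05, limma voom gave 1 (Eomesodermin contig 52375) and DESeq2 gave 0. At that p in edgeR, 4 contigs passed without SW1 fish 1, 4 without SW1 fish 2 and 2 without SW1 fish 3. Leaving out SW2 fish 1, 2 or 3 gave 1, 3 and 1. The share of all contigs passing in these fits is not given, so the counts are not read as a result about the 39 contigs. Without SW1 fish 1, 16 of 39 contigs were above 0 and the median was -0.13, while it was -0.24 without SW2 fish 1 and -0.57 without SW2 fish 2.

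On the NCBI reference, 0 of the 3 sequences tested in SW1 vs. FMC and 0 of the 3 in SW2 vs. FMC passed an unadjusted p of 0.05 in edgeR, against 1.81% and 5.68% of all sequences. For the mean of the seaweed diets and for SW2 vs. SW1, 0 of 4 passed, against 3.3% and 5.63%.

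The fish differed within a diet as well. Summed over all 39 contigs, FMC fish 1 to 3 held 116.902, 224.099 and 156.71 CPM. SW1 fish 1 to 3 held 359.975, 230.614 and 222.219 CPM, and SW2 fish 1 to 3 held 187.468, 249.946 and 207.384 CPM. SW1 fish 1 was the highest of the 9 fish in 16 of the 39 contigs and FMC fish 1 the lowest in 14. How often SW1 fish 1 was highest and FMC fish 1 lowest over all contigs was not counted. FMC fish 2, the other fish that stood apart on the first principal component, was the highest FMC fish in the sum of each family. The 49 contigs of T and NK cell markers summed to 440.689 to 610.912 CPM in FMC, 518.219 to 734.624 CPM in SW1 and 446.769 to 498.746 CPM in SW2. The words used for CD4, natural killer and killer cell lectin matched none of the contigs analysed here, while CD226 matched 2. The part of cell composition in the differences between fish was not tested.

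**Figure D4:**
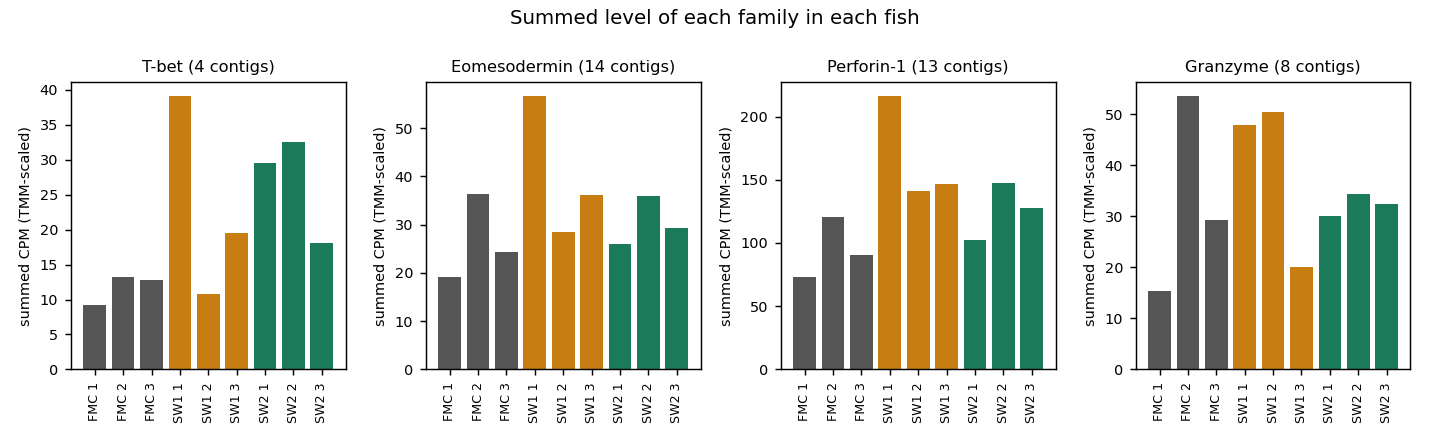
Summed level of the contigs of each family in each fish, in TMM-scaled CPM (bars start at 0; grey FMC, orange SW1, green SW2). SW1 fish 1 is the highest in T-bet, Eomesodermin and Perforin-1, and FMC fish 2 is the highest in Granzyme.

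To see whether the families varied together, the most abundant contig of each was compared across the 9 fish as log2 CPM. In T-bet contig 20247 the fish fell into 2 clusters, the 3 FMC fish with SW1 fish 2 and the other 5, separated by a gap of 2.19 on the log2 scale, so no correlation was given for its 3 pairs. Eomesodermin 33890 and Perforin-1 1553 had a Pearson r of 0.86 (exact permutation p = 0.00298, adjusted p = 0.0179 over 6 pairs, two-sided) and a Spearman rho of 0.80 (exact permutation p = 0.0138, adjusted p = 0.0765). Centred on the mean of each diet, r was 0.74 (exact permutation p = 0.0185, adjusted p = 0.111). Without FMC fish 1 and SW1 fish 1, the farthest from the median of Eomesodermin, r over the remaining 7 fish was 0.67 (exact permutation p = 0.097, adjusted p = 0.339), so that the call was lost while r stayed above 0. Granzyme contig 16966 had an r of 0.56 with Eomesodermin (exact permutation p = 0.116, adjusted p = 0.231) and of 0.25 with Perforin-1 (exact permutation p = 0.52, adjusted p = 0.624), with rho of 0.50 and 0.30 (exact permutation p = 0.178 and 0.437, adjusted p = 0.319 and 0.437). Without the 2 fish farthest from the median, these r were -0.050 and 0.48.

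Among 24730 other contigs with a Swiss-Prot match and at least 100 counts, the 5 ranked highest by Pearson r with T-bet contig 20247 over the 9 fish matched lipoma-preferred partner homolog, synergin gamma, ubiquitin carboxyl-terminal hydrolase FAF-X, retinoic acid receptor alpha-B and ATP-binding cassette sub-family A member 1. Because the fish form 2 clusters in contig 20247, their r is not given. Those most like Perforin-1 contig 1553 matched Perforin-1 again (contig 15544, r = 0.97), a pore channel of lysosomes, TPC2 (0.97), scavenger receptor M160 (0.96), an aquaporin (0.95) and the clock protein BMAL1 (0.95). These values describe the likeness of the profiles, and the fish share their library in both.

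A list of genes with a part in granule loading and secretion held 80 contigs, 35 of them matching AP-3 complex subunits. The cell types in which these contigs were expressed were not tested. Their log2 fold changes centred near 0 in SW1 (40 above 0, median 0.0062). At an unadjusted p under 0.05 in edgeR, 0 passed, where 1.68% of all contigs did. In SW2, 56 of 80 were above 0 (median 0.15), where 50.3% of all contigs were, and 5 were higher and 1 lower at that p, where 2.39% of all contigs were higher and 3.63% lower. The 3 most abundant contigs matched VAMP8 (4435) and syntaxin-11 (5170), which act in granule fusion, and a subunit of the AP-3 sorting complex (7745). Their log2 fold changes were 0.31, 0.095 and 0.044 in SW1 and 0.039, -0.15 and 0.19 in SW2.

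Of 10 contigs of proteins that activate or inhibit granule proteases, 0 passed an unadjusted p of 0.05 in edgeR in SW1 or SW2. Of all contigs 1.68% and 6.02% passed, so 0 of 10 is near both shares. Above 0 were 8 of 10 in SW1 (median 0.14) and 9 of 10 in SW2 (median 0.15), against 48.3% and 50.3% of all contigs. Dipeptidyl peptidase 1 (8332), which activates granzymes, had log2 fold changes of 0.14 and 0.065. The leukocyte elastase inhibitor contigs 181 and 12331 had values of 0.090 and 0.18 in SW1 and of 0.033 and 0.12 in SW2. Of 29 contigs of the Fas death receptor pathway, 0 passed in SW1 (13 above 0, median -0.031), where 1.68% of all contigs did. In SW2, 0 were higher and 2 lower (13 above 0, median -0.045), where 2.39% of all contigs were higher and 3.63% lower. The most abundant contigs of this pathway matched the initiator caspase-8 (2246) and the executioner caspase-3 (16645 and 6927). Their log2 fold changes were 0.065, 0.32 and 0.19 in SW1 and 0.051, 0.045 and -0.13 in SW2.

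Of 18 contigs of type 1 cytokines and their receptors, 0 passed in SW1, against 1.68% of all contigs. Above 0 were 12 of 18 in SW1 (median 0.20) and 11 of 18 in SW2, against 48.3% and 50.3% of all contigs. In SW2, 1 was higher (median 0.092), against 2.39% of all contigs. No contig analysed here was named interferon gamma, the main cytokine downstream of T-bet in mammals. The common cytokine receptor gamma subunit (868), the interleukin-12 receptor beta-2 subunit (3921) and interleukin-18 (12535) had log2 fold changes of 0.24, -0.46 and -0.097 in SW1 and of 0.069, -0.11 and -0.28 in SW2. Of 63 contigs of other lineage transcription factors, 2 were higher and 0 lower in SW1 (34 above 0, median 0.025), against 1.03% and 0.649% of all contigs. In SW2, 3 were higher and 1 lower (42 above 0, median 0.16), against 2.39% and 3.63%. GATA-binding factor 3 (16834), the factor of type 2 helper T cells, was at 0.059 and 0.16, and NFIL3, needed for NK cells in mouse, was at -0.31 and 0.019 (18479) and at -0.030 and -0.27 (36572).

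Of the 49 T and NK cell marker contigs, 0 passed an unadjusted p of 0.05 in edgeR in SW1, against 1.68% of all contigs. Above 0 in SW1 were 36 of the 49 (median 0.24), against 48.3% of all contigs. In SW2, 3 were higher and 2 lower at that p, against 2.39% and 3.63% of all contigs. Above 0 in SW2 were 27 of the 49 (median 0.0083), against 50.3% of all contigs. The T-cell receptor beta chain (1919), CD2 (12699) and CD3 zeta (10376) had log2 fold changes of 0.12, 0.070 and 0.19 in SW1 and of -0.50, -0.34 and -0.019 in SW2. After adjustment over all contigs, 0 contigs of these 6 lists passed in edgeR and 0 in DESeq2, in SW1 or in SW2. Of all contigs, 0.00343% in SW1 and 0% in SW2 passed in edgeR. Of the contigs to which DESeq2 gave an adjusted p, 0.0417% passed in SW1 and 0.065% in SW2. With shares so small, the 0 says little about these lists.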

How the data were processed

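Reads of 9 head kidney libraries were aligned by the authors with TopHat2 2.0.5 to 87600 contigs that they had assembled de novo from the reads of all fish and annotated by BLAST, and separately to 48223 NCBI cDNA sequences. They filtered with SAMtools 0.1.18 and counted with HTSeq 0.5.3p9, per the study's methods and the submitters' processing notes. The values used are the raw counts the authors deposited, per sequence and fish. Strand use and contig lengths are not given in the sources used here, so levels were not compared between genes. Columns of the authors' own DESeq comparisons (means, fold changes, p-values) were not used.

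Counts were scaled by TMM and tested with edgeR 4.0.16 (quasi-likelihood) in R 4.3.3, after leaving out contigs that summed to under 10 counts in the fish compared. SW1 and SW2 were each compared with FMC in fits of 6 fish. The mean of both seaweed diets and SW2 vs. SW1 came from fits of 9 fish. P-values were adjusted by Benjamini-Hochberg over all contigs, at a threshold of 0.05, and the SE was derived from the log2 fold change and the F statistic. The code was tested on simulated data. DESeq2 1.42.0, limma 3.58.1 (voom), other scaling and filters, a replicate term and leaving out fish were alternatives. Log2 CPM used a prior count of 2. Each fish came from its own tank, and p-values measure the spread between fish.

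All contigs of T-bet, Eomesodermin and Perforin-1 were named, with the 6 granzyme contigs of highest count, any granzyme with an unadjusted p under 0.05, the 3 most abundant contigs of each pathway list, and the 5 contigs most correlated with T-bet 20247 and Perforin-1 1553. Contig 82629 and both Fas ligand contigs were named after their values were seen. The members and lists were chosen with earlier results of these data known. Lists were made by words in the description, and contigs of activating transcription factor 7, caught by the words for transcription factor 7, were left out once seen.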

Additional observations from a re-analysis of the deposited data

How the results depend on the processing

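Limits: each diet had 3 fish and the contigs held 18 to 4038 counts. The SE of the log2 fold change of SW1 vs. FMC was 1.15 for the rarest contig, Granzyme 86741, and 0.357 for the most abundant, Perforin-1 1553. The size of difference that could be called at this depth was not measured.

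T-bet contig 20247 kept its direction and an unadjusted p under 0.05 in every alternative run for SW1, SW2 and both seaweed diets against FMC, and no contig that passed an unadjusted p of 0.05 changed sign in any of them. Counts of contigs after adjustment went from 0 to 1 with DESeq2 for SW1, SW2 and both seaweed diets vs. FMC. Of the contigs to which it gave an adjusted p, DESeq2 called 0.0417%, 0.065% and 0.024%. For SW2 vs. FMC the count was also 1 with the replicate block, where 10 of all 87309 contigs passed. It was 1 as well without FMC fish 2 and SW1 fish 1, where 7 of all 86605 passed. SW1 fish 1 is not part of SW2 vs. FMC, so that fit is the same as without FMC fish 2 alone. At an unadjusted p under 0.05, the count for SW2 vs. FMC went from 6 to 3 with all 9 fish in the fit, and that for both seaweed diets vs. FMC from 5 to 10 without FMC fish 2 and SW1 fish 1. For SW2 vs. SW1 it went from 0 to 1 with limma voom, to 1 with the replicate block and to 5 without FMC fish 2 and SW1 fish 1. On the NCBI reference it went from 0 to 1 for SW2 vs. FMC and for both seaweed diets vs. FMC without those 2 fish. The cause of these changes was not tested. Leaving contig 80 out, an alternative chosen after seeing the data, kept every one of these counts.

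Leaving out 1 fish at a time gave counts of 3 to 11 for SW1 vs. FMC, 3 to 9 for SW2 vs. FMC, 4 to 10 for both seaweed diets vs. FMC and 0 to 4 for SW2 vs. SW1. After adjustment it gave 0 to 1 for SW2 vs. FMC and 0 in the other comparisons. On the NCBI reference it gave 0 to 1 in each of the 4 comparisons at an unadjusted p under 0.05 and 0 after adjustment. For counts in the alternatives, the share of all contigs passing in the same fits is not given unless printed beside them.

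The deviations of same-numbered fish correlated at -0.3482 to 0.2139 on the de novo reference. Those of differently numbered fish correlated at -0.4317 to 0.5123. With 3 fish per diet, these values cannot decide whether the replicate numbers paired the fish. With the replicate block, 6 contigs passed an unadjusted p of 0.05 for SW1 vs. FMC, 6 for SW2 vs. FMC and 5 for both seaweed diets.

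The relation of Eomesodermin with Perforin-1 lost its adjusted call after centring (r = 0.74) and without 2 fish (r = 0.67), and that of Eomesodermin with Granzyme turned to r = -0.050 without FMC fish 1 and SW1 fish 1.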
